A study of Mus musculus with 12 samples.

Results

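The genes described here are 51 named components of the transforming growth factor beta (TGF-beta) and bone morphogenetic protein (BMP) pathways. They comprise ligands, latent binding proteins, secreted antagonists, receptors, SMAD proteins with their regulators, and the 3 ID targets. All 51 names were found among the 23423 genes of the deposited table, and all 51 passed the filter of at least 1 CPM (read counts scaled to the assigned reads of each library) in at least 2 libraries, which left 13977 genes tested. Of the 51, 45 were at or above 1 CPM in all 12 libraries. The other 6 were Acvr2b, Bmp7, Bmpr1b, Grem1, Nog and Gdf10, which passed through the groups in which they were higher. Their calls are kept in the counts over the 51 genes. Bmpr1b reached 1 CPM in only 2 libraries. It is among the genes counted lower for MGT against control and for shPtbp1 against shNT, and higher for shNT against MGT.

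Polyadenylated RNA of mouse heart cells was measured in 12 bulk libraries, 2 for each of 6 groups, all from CD1 mice. Fibroblasts were isolated from neonatal hearts at postnatal day 1.5 by selecting Thy1+ cells on magnetic columns, and cultures made from them were collected 3 days after virus was added. The cultures received MGT retrovirus with the hairpin virus shPtbp1, MGT with the non-targeting hairpin virus shNT, MGT alone, or control retrovirus. MGT is a vector for Mef2c, Gata4 and Tbx5, transcription factors used to turn fibroblasts toward a cardiomyocyte fate, and Ptbp1 encodes an RNA-binding splicing regulator. The other groups were neonatal cardiomyocytes and the Thy1+ fibroblasts, both at postnatal day 1.5 and uncultured. The fibroblast cultures share the same isolation, an overnight attachment in serum-rich medium and a transduction, and Ptbp1 was targeted with 1 hairpin. The cells were neonatal and had been treated for 3 days, and the labels mention no selection of transduced cells. The control libraries carry lacZ in their titles but an empty vector in the remaining labels, and are called control cultures. The source label of the second shPtbp1 library names shPtbp2, whereas its title and treatment label name shPtbp1. No label says that the replicates came from separate litters or cultures, so the p-values measure only the spread between these libraries, which may be technical.

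Ligands of the TGF-beta superfamily are secreted dimers that bring together type II and type I receptor kinases at the cell surface. TGF-beta and activin receptors phosphorylate SMAD2 and SMAD3, BMP receptors phosphorylate SMAD1, SMAD5 and SMAD9, and both classes enter the nucleus with SMAD4. TGF-beta is stored in the matrix in a latent form bound to LTBP proteins, BMPs are held in check by antagonists such as noggin and gremlin, and follistatin binds activins. SMAD6, SMAD7 and the ID genes are themselves targets of the pathway, the first 2 as feedback inhibitors. In the heart, TGF-beta is known for turning fibroblasts into matrix-producing myofibroblasts, and BMPs for roles in cardiac development.

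Upstream sequence is shown for Grem1, Smad6 and Ltbp1, because they were among the 8 genes with the largest called differences between MGT and control cultures and their windows hold no annotated exon. Each line gives the 250 bases upstream of the RefSeq start on the gene's strand (GRCm38.p6), at chr2:113758649-113758898 (minus strand) for Grem1, chr9:64022060-64022309 (minus strand) for Smad6 and chr17:75005279-75005528 (plus strand) for Ltbp1. Capitals mark GGCGCC, the core of a BMP response element, and CAGAC, a SMAD-binding box, searched on both strands (GTCTG is CAGAC on the other strand).
Grem1: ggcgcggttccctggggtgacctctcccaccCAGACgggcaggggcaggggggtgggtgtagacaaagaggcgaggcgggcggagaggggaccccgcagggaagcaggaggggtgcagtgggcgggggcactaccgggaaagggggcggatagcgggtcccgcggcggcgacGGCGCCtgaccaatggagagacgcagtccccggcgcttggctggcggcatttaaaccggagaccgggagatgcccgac
Smad6: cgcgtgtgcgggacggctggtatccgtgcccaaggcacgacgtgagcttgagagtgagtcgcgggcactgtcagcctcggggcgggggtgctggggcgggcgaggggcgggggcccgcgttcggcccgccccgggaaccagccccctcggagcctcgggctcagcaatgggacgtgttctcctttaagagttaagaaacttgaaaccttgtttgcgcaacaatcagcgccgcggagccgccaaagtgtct
Ltbp1: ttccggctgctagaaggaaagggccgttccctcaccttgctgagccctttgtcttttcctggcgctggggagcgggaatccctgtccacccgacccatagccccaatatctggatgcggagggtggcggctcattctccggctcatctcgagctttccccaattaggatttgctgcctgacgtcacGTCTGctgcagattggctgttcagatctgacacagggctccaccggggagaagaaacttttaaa
The Grem1 window holds each motif, the Ltbp1 window holds CAGAC, and neither set of letters is in the Smad6 window. GGCGCC is in 9.59% of all 32851 RefSeq windows of this length and in 9 of the 37 windows found for the 51 genes (24.3%). CAGAC is in 42.2% of all windows and in 17 of the 37 (45.9%). These matches describe letters and are not evidence of binding.

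Levels are given as scaled CPM, which are the deposited CPM divided by 1 scaling factor per library, and the replicates follow as 2 values. Ptbp1 stood at 81.7 and 79.1 scaled CPM with shPtbp1, against 362 and 367 with shNT, and was low in both libraries labelled shPtbp1. Summed levels of cell type markers moved with the groups. Endothelial markers (8 genes) summed to 85.9 and 93.8 in MGT cultures and 123 and 128 in control cultures, whereas fresh fibroblasts held 3138 and 3192 and fresh cardiomyocytes 4071 and 4065. Macrophage markers (8 genes) summed to 395 and 390.2 with shPtbp1, 457 and 470.01 with shNT and 1424 and 1426 with MGT. The fibroblast marker sum was highest in fresh fibroblasts, at 28273 and 27533, and the cardiomyocyte sum in fresh cardiomyocytes, at 13510.5 and 12844. Fresh cardiomyocytes also held a fibroblast marker sum of 14704 and 14598. That was above every cultured library, with 12330 and 13917 in control cultures, so this sum alone does not separate cardiomyocytes from cultured fibroblasts. In bulk RNA, fewer cells of a type and less RNA per cell cannot be told apart.

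**Figure D1:**
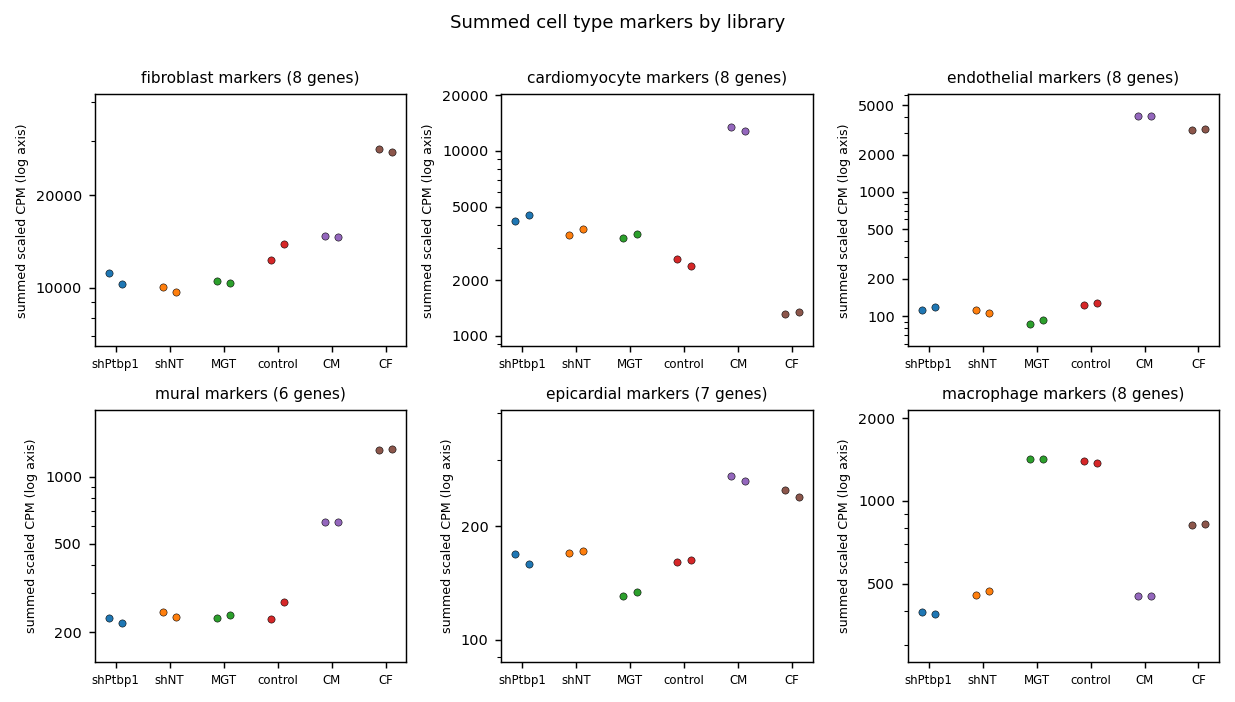
Summed scaled CPM (log axes) of marker genes for 6 cell types in each library, 1 point per library, 2 libraries per group, with each group of cultures left of its comparison group. Macrophage markers are lower in all 4 hairpin libraries than in the MGT and control libraries, and endothelial markers are lower in all 8 cultured libraries than in the 4 fresh ones.

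With MGT against control cultures, all 3 TGF-beta ligands rose, both activin ligands fell, and the antagonists Nog and Grem1 rose most of all 51 genes. Id1 and Id3 fell, as did both inhibitory SMADs. In all, 15 genes were higher, against 18% of all tested genes, and 19 were lower, against 17.6%. Together 34 of 51 (66.7%) passed the adjusted p threshold of 0.05 (limma), against 35.7% of all genes. The median absolute log2 difference was 0.22 for the 51 genes and 0.12 for all genes, and Nog was the 1 gene past 2-fold. Of the 34 calls, 32 were tested in all 17 alternatives and 22 of these held in each. Smad7 lost its call without MGT replicate 1 or control replicate 2 (adjusted p = 0.178 and 0.0615). Without MGT replicate 2 the number of lower genes among all tested was 1577 instead of 2465. Endothelial markers were called lower in 6 of 8, epicardial markers in 4 of 7 with 1 higher and fibroblast markers in 6 of 8 with 1 higher. Cardiomyocyte markers were higher in 6 of 8, mural markers in 2 of 6 with 1 lower and macrophage markers in 1 of 8 with 3 lower, and the markers' part in these results was not tested.

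With MGT and shNT against MGT alone, Smad6, Smad7, Id1 and Id3 rose, whereas Id2, Fst and Nog fell. These cultures differ by a second virus, which carries a non-targeting hairpin. Of the 51 genes, 18 were higher, against 24.6% of all genes, and 13 were lower, against 20.1%. The 31 called genes made up 60.8%, against 44.7% of all genes. The median absolute log2 difference was 0.20 for the 51 genes and 0.14 for all genes, and Smad6 rose and Fst fell past 2-fold. Macrophage markers fell in 8 of 8 in the same comparison and endothelial markers rose in 6 of 8 with 1 lower, Vwf, at 9.33 and 8.51 with shNT against 26.1 and 27.3 with MGT. Fibroblast markers were higher in 3 of 8 with 1 lower, epicardial markers higher in 3 of 7 with 1 lower, mural markers lower in 3 of 6 and cardiomyocyte markers higher in 1 of 8 with 1 lower. The markers' part in these results was not tested.

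With shPtbp1 against shNT, both on MGT, 4 of 7 BMP and GDF ligands rose, while both activin ligands fell. Of the 4 ligands, Gdf11, singled out after its values were seen, lost its call without shPtbp1 replicate 1, shPtbp1 replicate 2 or shNT replicate 2 (adjusted p = 0.0546, 0.0648 and 0.0989). Nog and Fst also rose, and the type I receptor Tgfbr1 fell. Of the 51 genes, 12 were higher, against 17% of all genes, and 18 were lower, against 17.8%. The 30 called genes made up 58.8%, against 34.8% of all genes. The median absolute log2 difference was 0.18 for the 51 genes and 0.12 for all genes, and Nog was the 1 gene past 2-fold. Without shNT replicate 1, 12 of the 51 genes were lower instead of 18, and 1656 of all tested genes instead of 2493. Cardiomyocyte markers rose in 6 of 8 in the same comparison and macrophage markers fell in 5 of 8. Fibroblast markers rose in 5 of 8, mural markers rose in 4 of 6 with 1 lower, endothelial markers rose in 3 of 8 with 1 lower and epicardial markers fell in 4 of 7 with 1 higher. The part of these markers was not tested.

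Fresh cardiomyocytes against fresh fibroblasts had more Bmp7, Nog, Fst, Inhbb, Smad7 and all 3 ID genes, and less of all 3 TGF-beta ligands, Ltbp2, Gdf10 and Gdf6. Of the 51 genes, 12 were higher, against 35% of all genes, and 28 were lower, against 41.9%. The called share was 78.4%, close to the 76.9% of all genes, and the median absolute log2 difference was 0.38 for the 51 genes and 0.37 for all genes. Endothelial markers were higher in 6 of 8 and mural markers lower in 6 of 6 in cardiomyocytes, with macrophage markers lower in 7 of 8 and epicardial markers higher in 4 of 7 and lower in 2, and their part was not tested. Control cultures against fresh fibroblasts had more Fst, Gdf6, Inhba, Inhbb, Ltbp2 and Tgfb3, and less Gdf10, Ltbp4, Bmp2, Tgfbr3 and all 3 ID genes. In that comparison 19 of the 51 genes were higher, against 44.5% of all genes, and 27 were lower, against 42.6%. Here too the called share, 90.2%, was close to the 87% of all genes, and 21 of the 51 genes were past 2-fold, 9 higher and 12 lower. The median absolute log2 difference was 0.89 for the 51 genes and 0.63 for all genes. Endothelial markers fell in 8 of 8, cardiomyocyte markers in 6 of 8 with 2 higher, and mural markers in 5 of 6 with 1 higher. Of 8 macrophage markers 5 rose and 3 fell, of 8 fibroblast markers 3 rose and 4 fell, and of 7 epicardial markers 2 rose and 4 fell. The part of these 6 marker lists was not tested. Control cultures differ from fresh fibroblasts in time, plating, medium and transduction, which cannot be told apart.

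**Figure D2:**
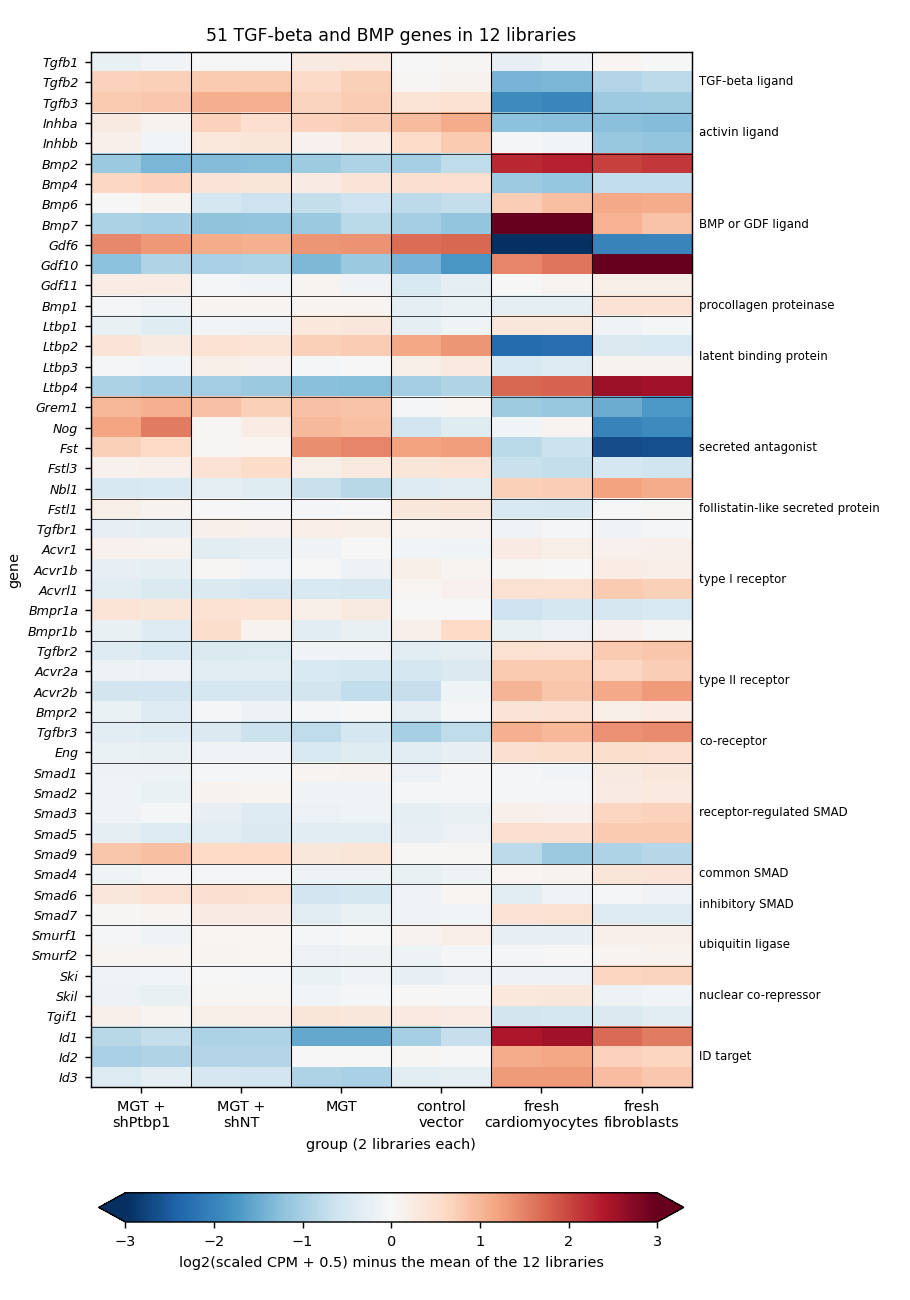
Level of each of the 51 genes in each of the 12 libraries, as log2(scaled CPM + 0.5) minus the gene's mean over the 12 libraries, ordered by role, with colours ending at -3 and 3. The fresh libraries stand apart from the 8 cultured libraries for Gdf6, Gdf10, Ltbp4, Bmp2 and Id1.

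**Figure D3:**
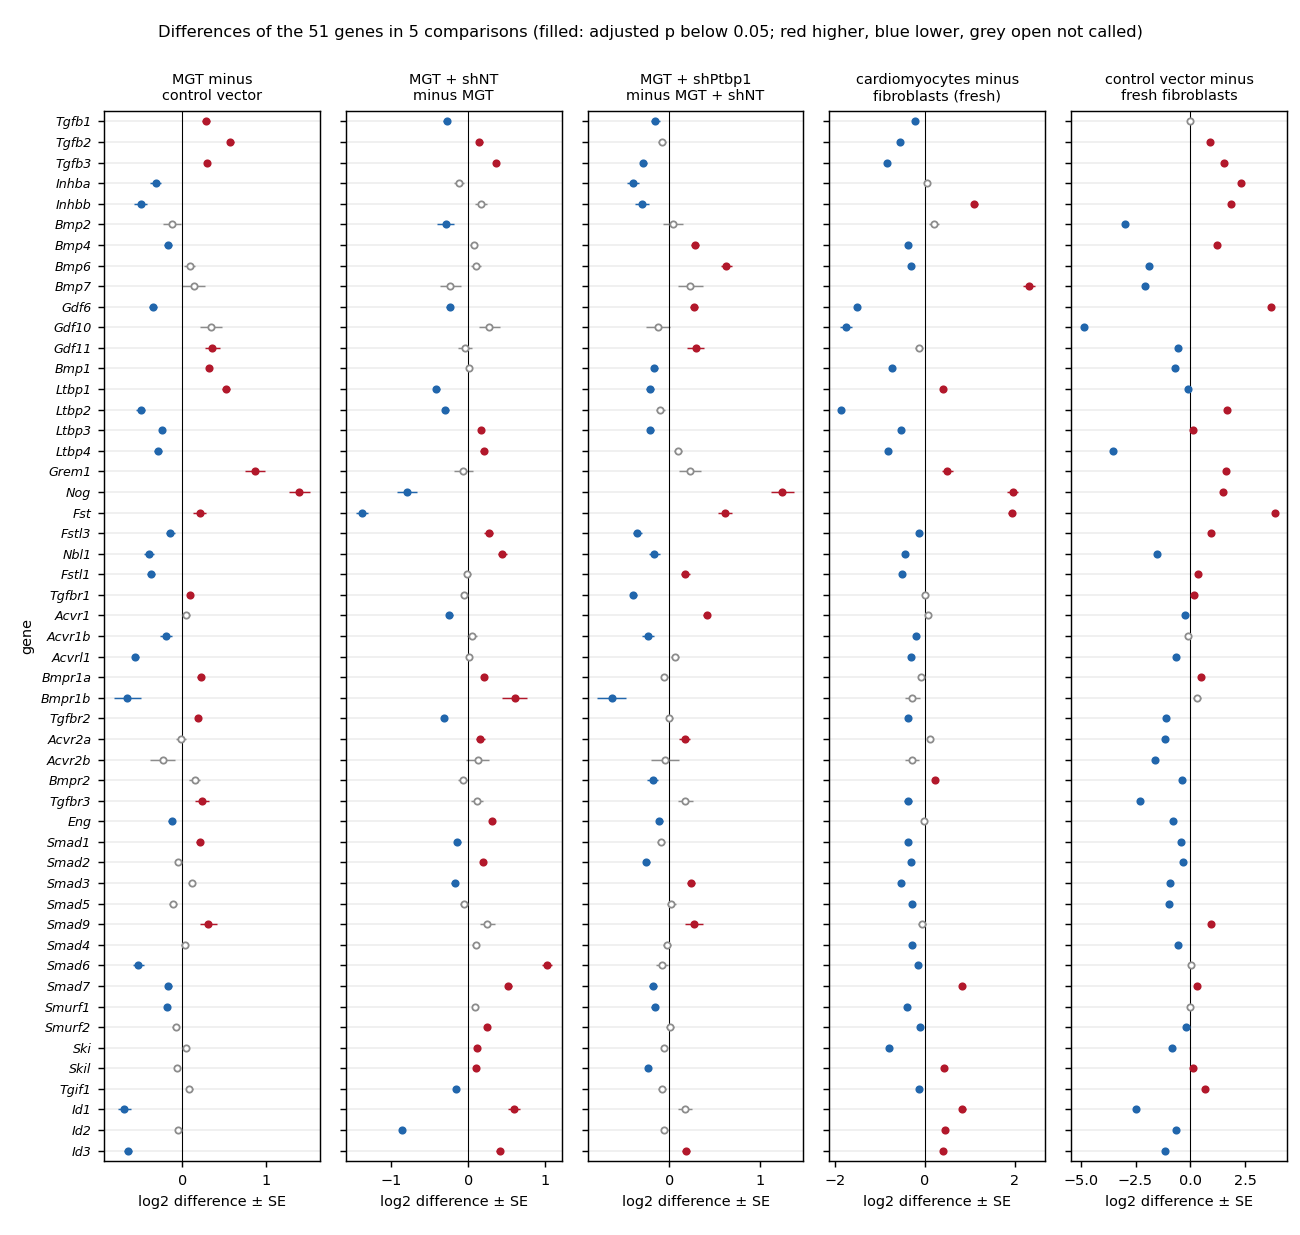
Log2 difference ± SE of each of the 51 genes in the 5 comparisons (2 libraries per group, limma), with a different x axis per panel. Filled red points are higher and filled blue points lower at an adjusted p below 0.05, and open grey points did not pass.

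The TGF-beta ligands differed in order between fresh and cultured fibroblasts. Per kilobase of exon, control cultures held 90.8 and 94.0 scaled CPM of Tgfb3, 44.0 and 45.3 of Tgfb1 and 32.7 and 34.8 of Tgfb2, whereas fresh fibroblasts held 32.1 and 32.5 of Tgfb3, 46.5 and 45.1 of Tgfb1 and 17.6 and 18.7 of Tgfb2. Tgfb3 was thus the highest per length in culture and Tgfb1 in fresh fibroblasts, with no overlap of the libraries. Tgfb2 (chr1:186622792-186705989, minus strand, GRCm38), a ligand known for its role in heart valve formation, stood at 272 and 276 with shPtbp1, 289 and 289.6 with shNT, 250.3 and 274 with MGT and 170.2 and 181 in control cultures (scaled CPM). Tgfb2 in fresh cells stood at 63.1 and 64.7 in cardiomyocytes and 91.5 and 97.2 in fibroblasts. Its level was higher in all 6 MGT libraries than in the 2 control libraries, and higher in culture than in fresh cells. The log2 difference of Tgfb2 was 0.58 ± 0.043 (SE) for MGT against control (adjusted p = 7.10e-09) and 0.89 ± 0.043 (adjusted p = 2.38e-13) for control cultures against fresh fibroblasts. For cardiomyocytes against fibroblasts it was -0.56 ± 0.043 (adjusted p = 8.72e-10). For shPtbp1 against shNT Tgfb2 was not called, at -0.08 ± 0.043 (adjusted p = 0.185). Its small rise with shNT against MGT, 0.14 ± 0.043 (adjusted p = 0.0123), was lost without MGT replicate 1 or shNT replicate 2 (adjusted p = 0.237 and 0.0587) and without the filter (adjusted p = 0.0514).

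Tgfb3 stood at 399 and 405 with shPtbp1, 493 and 489 with shNT, 369.7 and 397 with MGT and 307 and 318 in control cultures. Tgfb3 in fresh cells stood at 61.3 and 59.3 in cardiomyocytes and 108 and 110.1 in fibroblasts. The groups did not overlap, and from highest to lowest the cultures ran shNT, shPtbp1, MGT and control. Tgfb3 was higher by 0.29 ± 0.037 (adjusted p = 5.62e-06) on the log2 scale with MGT against control and by 0.36 ± 0.037 (adjusted p = 2.25e-07) with shNT against MGT. It was lower with shPtbp1 against shNT, at -0.29 ± 0.037 (adjusted p = 7.10e-06), and lower in cardiomyocytes than in fibroblasts, at -0.85 ± 0.037 (adjusted p = 1.48e-13). Control cultures exceeded fresh fibroblasts by 1.51 ± 0.037 (adjusted p = 4.77e-18). Tgfb1, the ligand most studied in fibrosis, stood at 83.2 and 91.8 with shPtbp1, 97.6 and 96.99 with shNT, 118 and 119 with MGT and 95.7 and 98.6 in control cultures. Tgfb1 in fresh cells stood at 81.0 and 88.9 in cardiomyocytes and 101 and 98.0 in fibroblasts. Tgfb1 was highest in both MGT libraries, and control cultures overlapped fresh fibroblasts. It rose with MGT against control by 0.28 ± 0.047 (adjusted p = 1.12e-04) and fell with shNT against MGT, at -0.28 ± 0.047 (adjusted p = 7.88e-05). Its fall with shPtbp1 against shNT, -0.15 ± 0.047 (adjusted p = 0.0162), was lost without shPtbp1 replicate 1, shNT replicate 1 or shNT replicate 2 (adjusted p = 0.228, 0.0816 and 0.0616) and without the filter (adjusted p = 0.0681). Cardiomyocytes were lower than fibroblasts, at -0.23 ± 0.047 (adjusted p = 2.31e-04). Control cultures against fresh fibroblasts gave -0.03 ± 0.047 (adjusted p = 0.49), which passed only when the libraries were not scaled (log2 difference -0.17, adjusted p = 0.00269).

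The activin ligands ran the other way with MGT. Inhba encodes the subunit of activin A and stood at 43.1 and 38.3 with shPtbp1, 57.4 and 50.5 with shNT, 58.0 and 59.3 with MGT and 69.2 and 77.3 in control cultures. Inhba in fresh cells stood at 14.9 and 14.5 in cardiomyocytes and 14.5 and 14.1 in fibroblasts. Both MGT libraries were below both control libraries, both shPtbp1 libraries were below both shNT libraries, and the fresh groups overlapped. Inhba was lower, at -0.32 ± 0.066 (adjusted p = 8.98e-04) with MGT against control and at -0.40 ± 0.066 (adjusted p = 9.48e-05) with shPtbp1 against shNT. With shNT against MGT it was not called at -0.12 ± 0.066 (adjusted p = 0.146), but passed without shNT replicate 1 (adjusted p = 0.0332) and in a fit of those 4 libraries (adjusted p = 0.0067). Control cultures exceeded fresh fibroblasts by 2.31 ± 0.066 (adjusted p = 4.42e-17), and cardiomyocytes against fibroblasts gave 0.04 ± 0.066 (adjusted p = 0.61). Inhbb, which encodes the subunit of activin B, stood at 24.0 and 20.4 with shPtbp1, 26.8 and 27.8 with shNT, 23.5 and 25.02 with MGT and 31.6 and 37.5 in control cultures. Inhbb in fresh cells stood at 20.8 and 20.2 in cardiomyocytes and 9.499 and 9.12 in fibroblasts. It was lower with MGT than in control cultures, at -0.50 ± 0.078 (adjusted p = 6.16e-05) and higher in cardiomyocytes than in fibroblasts by 1.10 ± 0.078 (adjusted p = 2.33e-10). Control cultures were higher than fresh fibroblasts by 1.83 ± 0.078 (adjusted p = 2.94e-14). The fall of Inhbb with shPtbp1 against shNT, -0.30 ± 0.078 (adjusted p = 0.0058), was lost without shPtbp1 replicate 2 (adjusted p = 0.117).

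Among the BMP and GDF ligands, Gdf6 and Gdf10 differed most between control cultures and fresh fibroblasts. Gdf6, a growth factor known for joint and skeletal patterning, stood at 189.95 and 174 with shPtbp1, 153 and 148 with shNT, 178 and 179 with MGT and 224 and 232 in control cultures. Gdf6 in fresh cells stood at 5.46 and 6.00 in cardiomyocytes and 17.0 and 17.5 in fibroblasts. Every cultured library was above every fresh one, and control cultures were the highest. Gdf6 was higher in control cultures than in fresh fibroblasts by 3.69 ± 0.047 (adjusted p = 2.61e-22) and was lower in cardiomyocytes than in fibroblasts, at -1.51 ± 0.047 (adjusted p = 8.95e-16). It was lower with MGT than in control cultures, at -0.35 ± 0.047 (adjusted p = 9.78e-06) and lower with shNT than with MGT, at -0.24 ± 0.047 (adjusted p = 3.20e-04), whereas shPtbp1 exceeded shNT by 0.27 ± 0.047 (adjusted p = 1.75e-04). Gdf10, also called BMP3B, went the opposite way on culture, with 0.801 and 0.522 scaled CPM in control cultures and 32.2 and 33.4 in fresh fibroblasts, a log2 difference of -4.85 ± 0.13 (adjusted p = 2.77e-17). Over the alternatives this difference ran from -5.61 with edgeR to -3.71, and both control libraries were below 1 scaled CPM. Gdf10 was at 8.89 and 9.83 in cardiomyocytes, -1.76 ± 0.13 (adjusted p = 6.00e-10) against fibroblasts. In the MGT and hairpin cultures it lay between 0.853 and 1.33.

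Bmp4, a ligand known for its role in forming cardiac mesoderm, stood at 84.8 and 88.8 with shPtbp1, 72.0 and 70.5 with shNT, 64.4 and 71.7 with MGT and 76.4 and 77.1 in control cultures. Bmp4 in fresh cells stood at 25.5 and 24.3 in cardiomyocytes and 32.6 and 32.5 in fibroblasts. Both shPtbp1 libraries were above every other library, and shNT and MGT overlapped. Bmp4 was higher with shPtbp1 than with shNT by 0.28 ± 0.048 (adjusted p = 1.51e-04). Its fall with MGT against control, -0.17 ± 0.048 (adjusted p = 0.00801), was lost without MGT replicate 1 (adjusted p = 0.183), and shNT against MGT, 0.07 ± 0.048 (adjusted p = 0.271), passed only without MGT replicate 2 (adjusted p = 0.0364). Control cultures exceeded fresh fibroblasts by 1.23 ± 0.048 (adjusted p = 7.51e-15), and cardiomyocytes were lower than fibroblasts, at -0.38 ± 0.048 (adjusted p = 7.56e-07). Bmp6, a ligand known for its role in iron balance, was at 23.7 and 25.7 with shPtbp1, against 16.3 and 15.3 with shNT. The shPtbp1 libraries were higher without overlap, by 0.63 ± 0.065 (adjusted p = 4.54e-07). Its exons overlap those of Txndc5 on the other strand, and the strand setting of the counting is not given in the sources used here. Bmp2, known for its role in the cushions of the heart valves, was at 1.92 and 2.34 in control cultures, against 19.4 and 20.4 in fresh fibroblasts, a difference of -2.96 ± 0.11 (adjusted p = 2.95e-15). Endothelial markers fell in 8 of 8 in that comparison, and their part in the lower Bmp2 was not tested. Bmp7 was at 10.9 and 11.73 in cardiomyocytes, against 2.01 and 1.70 in fibroblasts, and was below 1 CPM in every cultured library. The cardiomyocyte excess of Bmp7 was 2.32 ± 0.14 (adjusted p = 1.11e-11), the largest of the 51 genes there. Of the 7 BMP and GDF ligands, 3 were called with MGT against control (1 higher and 2 lower), where 35.7% of all genes were. With shNT against MGT 2 were lower, where 44.7% of all genes were called, and with shPtbp1 against shNT 4 were higher, where 34.8% were.

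**Figure D4:**
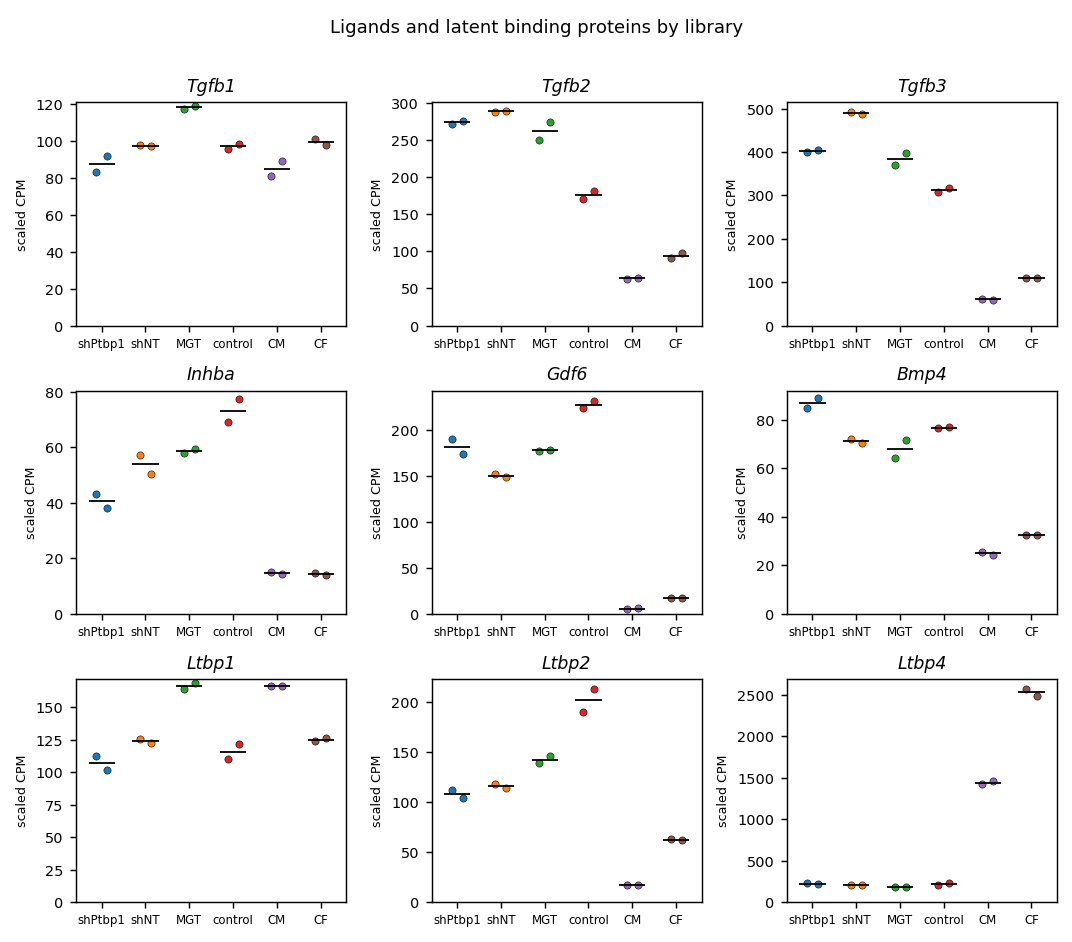
Scaled CPM of 6 ligands and 3 latent binding proteins in each library, 1 point per library with a line at the group mean (n = 2 each), linear axes from 0. Tgfb2 and Tgfb3 are higher and Inhba, Gdf6 and Ltbp2 lower with MGT than in control cultures, and Ltbp4 is highest in fresh fibroblasts.

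The 4 latent binding proteins, which anchor latent TGF-beta in the matrix or, for LTBP2, bind fibrillin without latent TGF-beta, did not move together. Ltbp1 stood at 113 and 102 with shPtbp1, 126 and 123 with shNT, 164 and 169 with MGT and 109.9 and 122 in control cultures. Ltbp1 in fresh cells stood at 166 and 166 in cardiomyocytes and 124 and 126 in fibroblasts. Both MGT libraries were above the other cultures without overlap. Ltbp1 rose with MGT against control by 0.52 ± 0.047 (adjusted p = 8.73e-08) and was lower with shNT than with MGT, at -0.42 ± 0.047 (adjusted p = 6.76e-07). Ltbp2 stood at 112 and 104 with shPtbp1, 118 and 114 with shNT, 139 and 146 with MGT and 190.1 and 214 in control cultures. Ltbp2 in fresh cells stood at 16.7 and 17.1 in cardiomyocytes and 63.1 and 62.0 in fibroblasts. Ltbp2 was highest in both control libraries and lowest in both cardiomyocyte libraries. It was lower with MGT than in control cultures, at -0.50 ± 0.050 (adjusted p = 3.29e-07) and lower with shNT than with MGT, at -0.30 ± 0.050 (adjusted p = 7.62e-05). With shPtbp1 against shNT it was not called at -0.10 ± 0.050 (adjusted p = 0.132), and passed only without shPtbp1 replicate 1 (adjusted p = 0.04). Control cultures exceeded fresh fibroblasts in Ltbp2 by 1.68 ± 0.050 (adjusted p = 9.57e-17), while cardiomyocytes were lower than fibroblasts, at -1.86 ± 0.050 (adjusted p = 9.89e-17). Ltbp4 fell to 208 and 229 in control cultures, against 2571 and 2485 in fresh fibroblasts, a log2 difference of -3.53 ± 0.044 (adjusted p = 1.96e-22). Per kilobase of exon, Ltbp4 was at 35.5 and 39.1 scaled CPM in control cultures, beside 56.5 and 61.7 for Ltbp3, 28.1 and 31.6 for Ltbp2 and 15.9 and 17.6 for Ltbp1. In fresh fibroblasts Ltbp4 was at 439 and 424 per kilobase and Ltbp3 at 54.5 and 53.9, so Ltbp4 led the family there. As a group the latent binding proteins had 1 higher and 3 lower of 4 with MGT against control, where 35.7% of all genes were called. They had 2 higher and 2 lower with shNT against MGT, where 44.7% of all genes were called. With shPtbp1 against shNT 0 were higher and 2 lower, where 34.8% were called.

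In each of the 3 comparisons of cultures the largest called difference belonged to a secreted antagonist, Nog for MGT against control and for shPtbp1 against shNT, and Fst for shNT against MGT. Nog (chr11:89300638-89302332, minus strand, GRCm38) encodes noggin, which binds BMPs, and stood at 7.53 and 10.0 with shPtbp1, 3.16 and 3.62 with shNT, 6.43 and 6.11 with MGT and 1.89 and 2.247 in control cultures. Nog in fresh cells stood at 2.87 and 3.23 in cardiomyocytes and 0.392 and 0.439 in fibroblasts. No libraries of neighbouring groups overlapped in the cultures, which ran shPtbp1, MGT, shNT and control from highest to lowest. Nog rose with MGT against control by 1.40 ± 0.13 (adjusted p = 8.69e-08), fell with shNT against MGT, at -0.80 ± 0.13 (adjusted p = 4.06e-05), and rose with shPtbp1 against shNT by 1.24 ± 0.13 (adjusted p = 4.21e-07). Cardiomyocytes exceeded fibroblasts in Nog by 1.96 ± 0.13 (adjusted p = 5.67e-11), or 1.06 with a pseudocount of 2, and control cultures exceeded fresh fibroblasts by 1.49 ± 0.13 (adjusted p = 1.55e-09). Grem1 encodes gremlin 1, another BMP antagonist, and stood at 3.12 and 3.28 with shPtbp1, 2.86 and 2.48 with shNT, 2.83 and 2.78 with MGT and 1.24 and 1.37 in control cultures. Grem1 in fresh cells stood at 0.364 and 0.325 in cardiomyocytes and 0.145 and 0.0516 in fibroblasts. All 6 MGT libraries lay above the control libraries, and all cultures above the fresh cells. Grem1 rose with MGT against control by 0.87 ± 0.12 (adjusted p = 1.62e-05), or 0.54 with a pseudocount of 2, while shNT against MGT gave -0.06 ± 0.12 (adjusted p = 0.708) and shPtbp1 against shNT 0.23 ± 0.12 (adjusted p = 0.165). Grem1 was higher in control cultures than in fresh fibroblasts by 1.60 ± 0.12 (adjusted p = 2.51e-10), a size that moved with the pseudocount (2.87 with 0.1, 0.66 with 2, and 3.66 with edgeR), and fresh fibroblasts held 18 reads in all. The higher Grem1 of cardiomyocytes, 0.50 ± 0.12 (adjusted p = 0.001), was lost under quantile normalization (adjusted p = 0.182) and ran from 0.16 with a pseudocount of 2 to 1.70 with edgeR, and all 4 fresh libraries were below 1 CPM.

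Fst (chr13:114452290-114458951, minus strand, GRCm38) encodes follistatin, which binds activins, and stood at 16.2 and 15.0 with shPtbp1, 10.0 and 10.0 with shNT, 26.4 and 27.7 with MGT and 22.9 and 23.7 in control cultures. Fst in fresh cells stood at 5.33 and 6.07 in cardiomyocytes and 1.12 and 1.14 in fibroblasts. From highest to lowest the groups ran MGT, control, shPtbp1, shNT, cardiomyocytes and fibroblasts, without overlap between neighbours. Fst was lower with shNT than with MGT, at -1.39 ± 0.080 (adjusted p = 4.31e-11) and higher with shPtbp1 than with shNT by 0.61 ± 0.080 (adjusted p = 8.24e-06). Control cultures exceeded fresh fibroblasts by 3.87 ± 0.080 (adjusted p = 3.17e-19), and cardiomyocytes exceeded fibroblasts by 1.93 ± 0.080 (adjusted p = 6.57e-14). Over the alternatives the first difference ran from 3.02 to 4.39 and the second from 1.30 to 2.34. The small rise with MGT against control, 0.21 ± 0.080 (adjusted p = 0.0492), was lost when any 1 of the 4 libraries was left out (adjusted p = 0.0781 without MGT replicate 1, 0.242 without MGT replicate 2, 0.182 without control replicate 1 and 0.0981 without control replicate 2). Fstl3, a follistatin relative that also binds activins, was at 40.1 and 41.1 with shPtbp1, against 50.0 and 54.1 with shNT, without overlap, a log2 difference of -0.35 ± 0.054 (adjusted p = 5.19e-05). Fstl3 shares exon positions with Prss57 on the other strand. Nbl1, a BMP antagonist of the DAN family, was at 23.6 and 22.1 with shNT, against 17.7 and 15.7 with MGT, and higher by 0.44 ± 0.059 (adjusted p = 5.15e-06). In the comparison of shNT with MGT the macrophage marker sum was 457 and 470.01 with shNT and 1424 and 1426 with MGT, and its part in these changes was not tested.

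Tgfbr1, the type I receptor of TGF-beta, stood at 85.9 and 83.7 with shPtbp1, 112 and 111 with shNT, 118 and 114 with MGT and 108 and 109 in control cultures. Tgfbr1 in fresh cells stood at 94.1 and 97.9 in cardiomyocytes and 94.3 and 97.1 in fibroblasts. Both shPtbp1 libraries were below every other library, and the fresh groups overlapped. Tgfbr1 was lower with shPtbp1 than with shNT, at -0.40 ± 0.036 (adjusted p = 9.19e-08). Its rise with MGT against control, 0.10 ± 0.036 (adjusted p = 0.0465), was lost when any 1 of the 4 libraries was left out (adjusted p = 0.221 without MGT replicate 1, 0.0701 without MGT replicate 2, 0.148 without control replicate 1 and 0.0692 without control replicate 2). Tgfbr1 was higher in control cultures than in fresh fibroblasts by 0.18 ± 0.036 (adjusted p = 1.37e-04), a call lost without scaling (adjusted p = 0.254). Tgfbr1 was not called with shNT against MGT, -0.05 ± 0.036 (adjusted p = 0.272), or in cardiomyocytes against fibroblasts, 0.00 ± 0.036 (adjusted p = 0.921). Tgfbr2, the type II receptor of TGF-beta, stood at 151 and 144 with shPtbp1, 147 and 148 with shNT, 183 and 183 with MGT and 159.7 and 162 in control cultures. Tgfbr2 in fresh cells stood at 271 and 269 in cardiomyocytes and 344 and 354 in fibroblasts. It was highest in fresh fibroblasts and, among the cultures, in both MGT libraries. Tgfbr2 rose with MGT against control by 0.19 ± 0.034 (adjusted p = 2.67e-04), fell with shNT against MGT, at -0.31 ± 0.034 (adjusted p = 4.14e-07), and gave 0.00 ± 0.034 (adjusted p = 0.996) with shPtbp1 against shNT. It was lower in control cultures than in fresh fibroblasts, at -1.11 ± 0.034 (adjusted p = 1.31e-16) and lower in cardiomyocytes than in fibroblasts, at -0.37 ± 0.034 (adjusted p = 9.23e-09).

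Acvrl1 (ALK1) is a type I receptor best known from endothelial cells. It was at 55.4 and 54.3 with MGT, against 79.4 and 83.2 in control cultures, without overlap, a log2 difference of -0.56 ± 0.042 (adjusted p = 5.69e-09). Endothelial markers were called lower in 6 of 8 in the same comparison, with sums of 85.9 and 93.8 in MGT cultures, against 123 and 128 in controls, and none was at 0. Their part in the Acvrl1 difference was not tested. Acvr1 (ALK2), a type I receptor of BMPs, was at 69.8 and 69.0 with shPtbp1, against 51.8 and 52.4 with shNT, without overlap, a log2 difference of 0.41 ± 0.041 (adjusted p = 3.19e-07). Tgfbr3, the co-receptor betaglycan, was at 12.8 and 15.1 in control cultures, against 68.7 and 70.5 in fresh fibroblasts, a log2 difference of -2.28 ± 0.082 (adjusted p = 1.80e-15). The type II receptors Tgfbr2, Acvr2a and Bmpr2 and both co-receptors were lower in control cultures than in fresh fibroblasts, with log2 differences between -0.38 and -2.28. The type II receptor Acvr2b passed the filter mainly through the fresh groups and is left out here. The endothelial marker sum was 123 and 128 in control cultures and 3138 and 3192 in fresh fibroblasts, and its part in the receptor falls was not tested. Bmpr1b, a type I receptor of BMPs, reached 1 CPM in 2 libraries and passed the filter through these, so its calls are left out of the receptor counts here. Bmpr1b was at 0.422 and 0.325 with shPtbp1, 1.07 and 0.669 with shNT, 0.355 and 0.426 with MGT and 0.704 and 1.13 in control cultures. Of the other 5 type I receptors, 1 was higher and 2 were lower with shPtbp1 against shNT, where 34.8% of all genes were called. With MGT against control 2 of the 5 were higher and 2 lower, where 35.7% of all genes were called. Over the 3 comparisons of cultures the log2 differences of these 5 lay between -0.56 and 0.41 and those of the type II receptors between -0.31 and 0.19.

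The 5 receptor-regulated SMADs had log2 differences between -0.26 and 0.31 over the 3 comparisons of cultures. Smad3, which carries TGF-beta and activin signals, stood at 69.9 and 71.7 with shPtbp1, 63.2 and 57.0 with shNT, 66.9 and 68.9 with MGT and 60.8 and 64.8 in control cultures. Smad3 in fresh cells stood at 83.6 and 81.5 in cardiomyocytes and 118 and 121 in fibroblasts. It was highest in fresh fibroblasts, and both shPtbp1 libraries were above both shNT libraries. Smad3 was higher with shPtbp1 than with shNT by 0.24 ± 0.046 (adjusted p = 5.76e-04). With MGT against control it was not called at 0.11 ± 0.046 (adjusted p = 0.0658), and passed only without control replicate 2 (adjusted p = 0.0331). Its fall with shNT against MGT, -0.18 ± 0.046 (adjusted p = 0.00445), was lost without shNT replicate 2 (adjusted p = 0.135). Smad3 was lower in control cultures than in fresh fibroblasts, at -0.92 ± 0.046 (adjusted p = 3.68e-13) and lower in cardiomyocytes, at -0.53 ± 0.046 (adjusted p = 4.36e-09). In cardiomyocytes against fibroblasts 4 of the 5 receptor-regulated SMADs were lower, where 76.9% of all genes were called and 41.9% were lower. The log2 differences of these 5 lay between -0.53 and -0.06, beside a median absolute difference of 0.37 over all genes. Smad4, the shared partner, was lower there too, at -0.29 ± 0.042 (adjusted p = 3.12e-06). Smad4 was not called in the 3 comparisons of cultures, with log2 differences of 0.03 for MGT against control, 0.09 for shNT against MGT and -0.03 for shPtbp1 against shNT. Levels of Smad4 were chosen for mention after they were seen.

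The inhibitory SMADs, which act as feedback brakes on the receptors, moved in opposite directions with MGT and with the added hairpin virus. Smad6 (chr9:63953076-64022059, minus strand, GRCm38), which mainly restrains BMP signals, stood at 65.5 and 70.3 with shPtbp1, 72.8 and 71.1 with shNT, 34.7 and 35.7 with MGT and 48.0 and 53.9 in control cultures. Smad6 in fresh cells stood at 40.6 and 47.8 in cardiomyocytes and 50.8 and 48.0 in fibroblasts. Both MGT libraries were below every other library, and all 4 hairpin libraries were above every other library. Smad6 fell with MGT against control, at -0.53 ± 0.065 (adjusted p = 3.73e-06), and rose with shNT against MGT by 1.02 ± 0.065 (adjusted p = 1.67e-10), while shPtbp1 against shNT gave -0.08 ± 0.065 (adjusted p = 0.349). Control cultures overlapped fresh fibroblasts, at 0.04 ± 0.065 (adjusted p = 0.548). The lower Smad6 of cardiomyocytes, -0.16 ± 0.065 (adjusted p = 0.0281), was lost without cardiomyocyte replicate 1 or fibroblast replicate 1 (adjusted p = 0.504 and 0.192) and without the filter (adjusted p = 0.102), and was -0.28 without cardiomyocyte replicate 2. Smad7, which restrains both branches, stood at 59.1 and 61.3 with shPtbp1, 68.6 and 68.1 with shNT, 45.3 and 50.1 with MGT and 52.5 and 54.5 in control cultures. Smad7 in fresh cells stood at 78.2 and 78.5 in cardiomyocytes and 43.9 and 43.4 in fibroblasts. It was highest in cardiomyocytes and, among the cultures, with shNT. Smad7 was higher with shNT than with MGT by 0.52 ± 0.046 (adjusted p = 2.25e-08) and lower with shPtbp1 than with shNT, at -0.18 ± 0.046 (adjusted p = 0.00435). Its fall with MGT against control, -0.17 ± 0.046 (adjusted p = 0.00817), was lost without MGT replicate 1 or control replicate 2 (adjusted p = 0.178 and 0.0615). Cardiomyocytes exceeded fibroblasts in Smad7 by 0.84 ± 0.046 (adjusted p = 4.17e-12), and control cultures exceeded fresh fibroblasts by 0.29 ± 0.046 (adjusted p = 8.02e-06).

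The ubiquitin ligases Smurf1 and Smurf2, which mark SMADs and receptors for breakdown, and the nuclear co-repressors Ski, Skil and Tgif1 had log2 differences between -0.23 and 0.24 in the 3 comparisons of cultures. Of the 3 co-repressors, 1 was called lower with shPtbp1 against shNT, where 34.8% of all genes were called. With shNT against MGT 2 were higher and 1 lower, where 44.7% of all genes were called.

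The 3 ID genes encode proteins that block basic helix-loop-helix transcription factors and are classic BMP targets, but Id2 did not follow the other 2 in the cultures. Id1 (chr2:152736251-152737410, plus strand, GRCm38) stood at 12.9 and 14.1 with shPtbp1, 11.8 and 12.02 with shNT, 7.75 and 7.69 with MGT and 11.4 and 14.3 in control cultures. Id1 in fresh cells stood at 127 and 136 in cardiomyocytes and 77.1 and 70.2 in fibroblasts. Every cultured library was far below every fresh one, and both MGT libraries were the lowest. Id1 fell with MGT against control, at -0.69 ± 0.080 (adjusted p = 1.91e-06), and rose with shNT against MGT by 0.59 ± 0.080 (adjusted p = 6.39e-06), while shPtbp1 against shNT was not called at 0.17 ± 0.080 (adjusted p = 0.107). Id1 was lower in control cultures than in fresh fibroblasts, at -2.48 ± 0.080 (adjusted p = 3.38e-16) and higher in cardiomyocytes than in fibroblasts by 0.83 ± 0.080 (adjusted p = 1.89e-08). Id3 (chr4:136143497-136145755, plus strand, GRCm38) stood at 74.1 and 79.9 with shPtbp1, 69.8 and 66.0 with shNT, 51.5 and 50.4 with MGT and 78.9 and 81.5 in control cultures. Id3 in fresh cells stood at 238 and 239.9 in cardiomyocytes and 189 and 173 in fibroblasts. Again both MGT libraries were below every other library. Id3 fell with MGT against control, at -0.65 ± 0.046 (adjusted p = 2.77e-09), and rose with shNT against MGT by 0.41 ± 0.046 (adjusted p = 5.29e-07). Its rise with shPtbp1 against shNT, 0.18 ± 0.046 (adjusted p = 0.005), was lost without shPtbp1 replicate 2 or shNT replicate 2 (adjusted p = 0.0844 and 0.0706). Control cultures were lower than fresh fibroblasts in Id3, at -1.16 ± 0.046 (adjusted p = 7.59e-15), and cardiomyocytes were higher by 0.41 ± 0.046 (adjusted p = 1.62e-07).

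Id2 (chr12:25093799-25097140, minus strand, GRCm38) stood at 41.4 and 43.5 with shPtbp1, 44.4 and 43.9 with shNT, 80.4 and 80.2 with MGT and 83.9 and 82.0 in control cultures. Id2 in fresh cells stood at 176 and 181 in cardiomyocytes and 132 and 128 in fibroblasts. The 4 hairpin libraries were near each other and below the MGT and control libraries without overlap. Id2 fell with shNT against MGT, at -0.86 ± 0.038 (adjusted p = 7.70e-13), whereas MGT against control gave -0.05 ± 0.038 (adjusted p = 0.374) and shPtbp1 against shNT -0.06 ± 0.038 (adjusted p = 0.283). Control cultures were lower than fresh fibroblasts in Id2, at -0.64 ± 0.038 (adjusted p = 4.62e-12) and cardiomyocytes higher than fibroblasts by 0.46 ± 0.038 (adjusted p = 1.93e-09). Marker sums moved in the same comparisons. With MGT against control the endothelial sum was 85.9 and 93.8 in MGT cultures, against 123 and 128 in controls, and the epicardial sum 131 and 134, against 160.3 and 162 in controls. With shNT against MGT the epicardial sum was 170.3 and 172 with shNT and 131 and 134 with MGT, and the macrophage sum 457 and 470.01 with shNT and 1424 and 1426 with MGT. Fresh fibroblasts held an endothelial sum of 3138 and 3192 and fresh cardiomyocytes 4071 and 4065, against the 123 and 128 of control cultures. The part of these markers in the differences of Id1, Id2, Id3 and Smad6 was not tested.

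**Figure D5:**
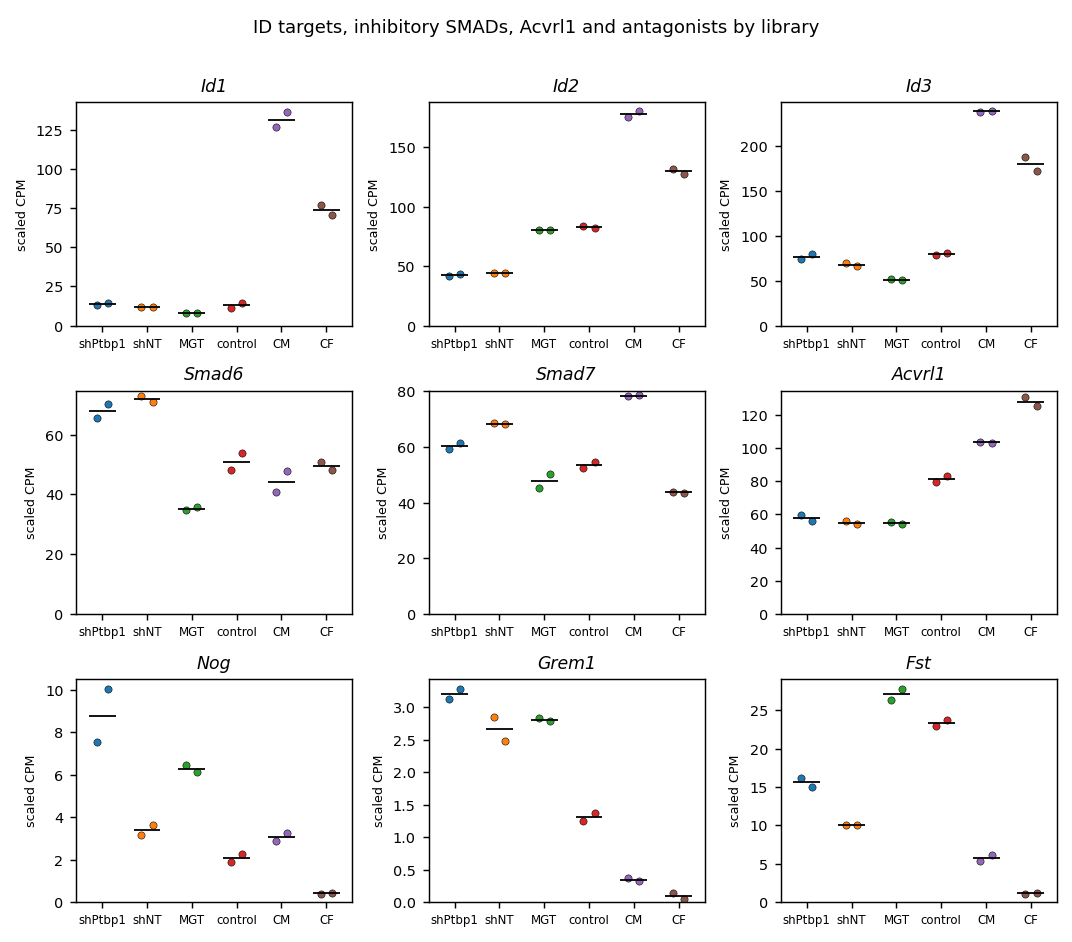
Scaled CPM of the 3 ID targets, 2 inhibitory SMADs, Acvrl1 and 3 antagonists in each library, 1 point per library with a line at the group mean (n = 2 each), linear axes from 0. Id1, Id3 and Smad6 are lowest with MGT, Id2 is lower in the 4 hairpin libraries than with MGT or in control cultures, and Nog is highest with shPtbp1.

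Bmp1 and Fstl1 stand outside these roles and were named after their values were seen. Bmp1, a proteinase that cleaves procollagens and the BMP antagonist chordin, was at 389 and 389 with MGT, against 299 and 322 in control cultures, higher by 0.33 ± 0.037 (adjusted p = 1.31e-06). With shPtbp1 Bmp1 was at 355 and 343, against 392 and 392 with shNT, a log2 difference of -0.17 ± 0.037 (adjusted p = 0.00153). Fstl1, a secreted follistatin-like glycoprotein, was at 2247 and 2296 with MGT, against 2912 and 2977 in control cultures, a log2 difference of -0.37 ± 0.045 (adjusted p = 3.21e-06). With shPtbp1 Fstl1 was at 2608 and 2491, against 2269.7 and 2239 with shNT, higher by 0.18 ± 0.045 (adjusted p = 0.00512). In cardiomyocytes both fell against fibroblasts, Bmp1 at -0.73 ± 0.037 (adjusted p = 1.31e-12) and Fstl1 at -0.50 ± 0.045 (adjusted p = 8.03e-09).

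Of 55 further genes of the 2 pathways found in the table, 43 were tested. With MGT against control, 11 were higher and 12 lower (53.5% called, against 35.7% of all genes), and without MGT replicate 2 the number higher was 7. With shNT against MGT, 19 were higher and 12 lower (72.1%, against 44.7%). With shPtbp1 against shNT, 8 were higher and 9 lower, a share of 39.5% near the 34.8% of all genes. In cardiomyocytes against fibroblasts, 16 were higher and 21 lower (86%, against 76.9%), and in control cultures against fresh fibroblasts, 18 were higher and 24 lower (97.7%, against 87%).

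Bambi encodes a decoy receptor that dampens both branches. It was at 26.9 and 27.8 with MGT, against 22.9 and 21.9 in control cultures, higher by 0.28 ± 0.058 (adjusted p = 8.12e-04). In cardiomyocytes Bambi was at 76.2 and 76.2, against 27.9 and 25.9 in fibroblasts, higher by 1.49 ± 0.058 (adjusted p = 2.73e-14). Control cultures were lower than fresh fibroblasts in Bambi, at -0.26 ± 0.058 (adjusted p = 3.78e-04). Its rise with shNT against MGT, 0.15 ± 0.058 (adjusted p = 0.0399), was lost when any 1 of the 4 libraries was left out (adjusted p between 0.0673 and 0.198). With shPtbp1 against shNT it was not called, at 0.10 ± 0.058 (adjusted p = 0.221), and passed only without shPtbp1 replicate 1 (adjusted p = 0.0243). Other large changes of the further genes were Bmp8a, Chrdl1 and Tgfbi with MGT against control. Bmp8a, a BMP ligand, was at 1.78 and 2.31 in MGT cultures, against 0.411 and 0.567 in controls, higher by 1.36 ± 0.20 (adjusted p = 2.50e-05). Over the alternatives this size ran from 0.70 to 2.06, the latter with edgeR. Chrdl1, a chordin-like BMP antagonist, was at 2.86 and 2.96 in MGT cultures, against 1.55 and 1.26 in controls, higher by 0.84 ± 0.12 (adjusted p = 2.29e-05). Its size ran from 0.53 to 1.05 over the alternatives. Tgfbi, a matrix protein named for its induction by TGF-beta, was at 21.2 and 20.4 in MGT cultures, against 37.4 and 36.7 in controls, a log2 difference of -0.82 ± 0.053 (adjusted p = 8.65e-10).

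With shPtbp1 against shNT the 3 largest changes among the further genes were of Bmp3, Itgb8 and Ctgf. Bmp3, a BMP family ligand known as an inhibitor of BMP signals, was at 68.9 and 66.6 with shPtbp1 and 40.8 and 40.01 with shNT, higher by 0.74 ± 0.076 (adjusted p = 4.21e-07). Itgb8, an integrin subunit whose integrin helps release latent TGF-beta, was at 5.12 and 5.12 with shPtbp1 and 8.91 and 8.34 with shNT, a log2 difference of -0.70 ± 0.081 (adjusted p = 2.03e-06). Ctgf, a matricellular TGF-beta target, was at 1547 and 1609 with shPtbp1 and 2442 and 2411 with shNT, a log2 difference of -0.62 ± 0.050 (adjusted p = 2.19e-08). With shNT against MGT, Itgb8 was higher by 0.86 ± 0.081 (adjusted p = 5.78e-08), Id4, a further ID gene, was higher by 0.67 ± 0.093 (adjusted p = 8.09e-06) and Bmp8a was lower, at -0.998 ± 0.20 (adjusted p = 3.86e-04). The Bmp8a difference ran from -1.43 to -0.54 over the alternatives. Control cultures against fresh fibroblasts had 43.3 and 43.4 against 0.733 and 0.568 of Bmp3, a difference of 5.26 ± 0.076 (adjusted p = 1.47e-21), and 2461 and 2689 against 232 and 226 of Ctgf, a difference of 3.49 ± 0.050 (adjusted p = 1.54e-21). The Bmp3 difference ran from 4.10 to 6.05 over the alternatives. In cardiomyocytes Gdf15, a stress-induced cytokine, was at 49.5 and 59.8, against 6.28 and 5.46 in fibroblasts, higher by 3.11 ± 0.10 (adjusted p = 2.20e-15). Bmp10, a ligand of the developing heart muscle, was at 5.60 and 5.46 in cardiomyocytes and 1.73 and 1.14 in fibroblasts, higher by 1.66 ± 0.15 (adjusted p = 5.07e-09). Fstl4, a follistatin-like gene, was at 2.43 and 2.45 in cardiomyocytes and 0.258 and 0.116 in fibroblasts, higher by 2.11 ± 0.16 (adjusted p = 4.05e-10). Over the alternatives the Fstl4 difference ran from 1.02 to 3.63 and that of Bmp10 from 1.14 to 1.92.

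Of the 51 genes, 15 have an exon that overlaps an exon of another gene in GENCODE vM21. Those given with library values are Tgfb2, Tgfb3, Tgfbr3, Acvrl1, Bmp4, Bmp6, Ltbp2, Fst and Fstl3, and since the strand setting of the counting is not given in the sources used here, reads of the partner gene may be counted with them.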

How the data were processed

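The data are 12 libraries of polyadenylated RNA prepared with a stranded kit, per the labels' protocols. The authors deposited CPM of 23423 genes in 1 table, whose 12 column names each matched 1 sample. The submitters' processing notes name TopHat2 2.1.0, HTSeq 0.6.1p1, FastQC and mm10, and neither the annotation nor the strand setting is given in the sources used here. The deposited CPM were whole multiples of 1 read for 100% of values (tolerance 0.1 reads), which gave 49320858 to 94005212 assigned reads per library.

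Each library's CPM were scaled by median of ratios (factors 0.96 to 1.07). Genes reaching 1 CPM in 2 or more libraries were tested with limma 3.58.1 (R 4.3.3) on log2(scaled CPM + 0.5). Fold changes on that scale understate changes of low genes. All 12 libraries entered 1 fit with a mean per group (6 residual degrees of freedom), and p-values were two-sided and adjusted by Benjamini-Hochberg over 13977 genes, with a threshold of 0.05. With 2 libraries against 2, an exact permutation test cannot go below p = 0.333, so calls rest on the spread shared over genes and groups. That spread was not equal. The median SD between replicates on the log2 scale ran from 0.034 in fresh fibroblasts to 0.052 with shPtbp1 and 0.054 in control cultures. A shared SE may thus understate the spread in comparisons with the last groups. edgeR 4.0.16's quasi-likelihood test on the recovered reads was an alternative and called 2578 genes higher and 2578 lower for MGT against control, 2978 and 3188 for shNT against MGT, 2448 and 2488 for shPtbp1 against shNT, 4747 and 5936 for cardiomyocytes against fibroblasts, and 6325 and 5862 for control cultures against fresh fibroblasts. The pipeline was tested on simulated data. Alternatives were other scalings, pseudocounts, filters, subsets of libraries, a replicate block and leaving out each library. Gene positions and exon lengths came from GENCODE vM21, and upstream windows from RefSeq.

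Library values were given for up to 8 called genes per comparison with the largest differences whose higher group mean was 2 scaled CPM or more and whose replicates did not overlap between groups, and always for 16 named genes. Genes so named in 1 comparison are also given in others. Of the further pathway genes the 3 largest called changes per comparison were named, with Bambi always, and 1 further result is not reported here. The 51 genes, the marker lists and the tests were chosen with earlier results of these data known. The figures were drawn with matplotlib 3.10.9.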

Additional observations from a re-analysis of the deposited data

How the results depend on the processing

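Of the calls among the 51 genes, 22 of 34 for MGT against control, 23 of 31 for shNT against MGT, 19 of 30 for shPtbp1 against shNT, 34 of 40 for cardiomyocytes against fibroblasts and 40 of 46 for control cultures against fresh fibroblasts were tested and held under every alternative run. Among the called genes, Bmpr1b, Grem1 and Acvr2b could not be tested under every alternative. No called gene was called in the opposite direction. Leaving out 1 library gave 11 to 14 higher and 15 to 20 lower genes for MGT against control, 14 to 18 and 11 to 13 for shNT against MGT, 8 to 11 and 12 to 16 for shPtbp1 against shNT, 12 to 12 and 25 to 27 for cardiomyocytes against fibroblasts, and 18 to 20 and 26 to 27 for control cultures against fresh fibroblasts. Further pathway genes higher with MGT numbered 7 to 12 when 1 library was left out. With MGT against control, Fst lost its call without scaling (adjusted p = 0.0645) and with any 1 of the 4 libraries left out (0.0781 to 0.243), and Tgfbr1 likewise (0.0834, and 0.0692 to 0.221). The sign turned only for differences that were not called. Tgfbr1 in cardiomyocytes against fibroblasts was -0.00733 without scaling, -0.01906 with upper-quartile scaling, -0.02311 with TMM, -0.007062 with edgeR and -0.02753 to 0.0288 with 1 library left out. Tgfbr2 with shPtbp1 against shNT was -0.00135 without scaling, -0.001752 with upper-quartile scaling and -0.03509 to 0.03568 with 1 library left out. Smad6 in control cultures against fresh fibroblasts was -0.09172 without scaling and -0.03704 to 0.1254 with 1 library left out. Inhba in cardiomyocytes against fibroblasts was -0.03099 and Grem1 with shNT against MGT 0.04509 under quantile normalization. With 1 library left out Grem1 with shNT against MGT ran -0.1488 to 0.02207 and Bmp4 -0.008178 to 0.1465. Omitting the scaling moved the median gene of control cultures against fresh fibroblasts by -0.127. Replicates share only a number: the same-numbered deviations correlated between -0.027 and 0.161, and nothing in the labels pairs them. With the replicate block, 13 genes were higher and 19 lower for MGT against control, 17 and 13 for shNT against MGT, 12 and 18 for shPtbp1 against shNT, 12 and 28 for cardiomyocytes against fibroblasts, and 19 and 27 for control cultures against fresh fibroblasts. Bmp7 had 22 reads in the MGT and 12 in the control libraries, and the part of depth was not tested.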

Other observations

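The genes in this paragraph were chosen after their values were seen. Thbs1, which encodes thrombospondin 1, an activator of latent TGF-beta, stood at 3051 and 2879 scaled CPM with shPtbp1, against 4499.9 and 4202 with shNT, a log2 difference of -0.55 ± 0.067 (adjusted p = 3.29e-06) by limma. It was at 4071 and 4268 with MGT, against 4508 and 5384 in control cultures (log2 difference -0.24 ± 0.067, adjusted p = 0.00844). Ctgf, also known as a TGF-beta target, was at 1989.9 and 2199 with MGT, against 2461 and 2689 in control cultures (log2 difference -0.30 ± 0.050, adjusted p = 1.24e-04). Bmp3 was at 48.6 and 51.1 with MGT, against 43.3 and 43.4 in control cultures (log2 difference 0.20 ± 0.076, adjusted p = 0.0462), and with shNT against MGT its difference was -0.30 ± 0.076 (adjusted p = 0.0032). Whether the calls in this paragraph hold under the alternatives or with a library left out was not examined.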
